A study of Mus musculus with 8 samples.

Results

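The genes described here are 34 genes of cholesterol and fatty acid synthesis, chosen by name, among the 27594 genes whose RNA was counted in regulatory T (Treg) cells of mice. All 34 names were found in the count table, and 32 of them had enough counts to be tested. Scd1 and Fads2 were too low for a test. They comprise 5 regulators of the pathway, 8 enzymes of the mevalonate route, 11 enzymes from squalene to cholesterol, the sterol carrier Stard4, 8 enzymes of fatty acid synthesis and desaturation, and Lpin1 of glycerolipid synthesis.

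Mammalian cells make cholesterol and fatty acids from acetyl-CoA, and most enzymes of both routes are under the transcription factors SREBP1 and SREBP2, encoded by Srebf1 and Srebf2. The sterol sensor Scap escorts these factors from the endoplasmic reticulum to the Golgi, where they are cut and released to the nucleus, and Insig proteins hold Scap back when sterols are plentiful. T cells draw on these routes when they grow and divide, and the mevalonate route also supplies the prenyl groups that anchor small GTPases and has been tied to the function of Treg cells.

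RNA sequencing was done on resting Treg (rTreg) cells, sorted as CD4+YFP+ cells low for CD44, and activated Treg (aTreg) cells, sorted as CD4+YFP+ cells high for CD44, with a further surface marker in both gates. The cells came from spleen and peripheral lymph nodes of C57BL/6 mice aged 6 to 8 weeks, of the genotype Foxp3-YFP-Cre (WT) or Foxp1fl/fl Foxp3-YFP-Cre (Foxp1-deficient), so that every group carried the Cre, which is driven by the Foxp3 locus and marks the cells with YFP. Each of the 4 groups had 2 libraries, and the study asked what the loss of the transcription factor Foxp1 does to both subsets. The labels do not say whether replicates came from separate mice. The libraries of each group differed in sex by their Xist counts, given in the next paragraph, so that they did not come from a single mouse, and whether mice were pooled is not given in the labels. The p-values measure the spread between these samples that is left after the difference between the replicate numbers was fitted.

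The counts per library summed to between 6373170 and 15268623, and the 34 genes took between 0.205% and 0.235% of them. At these depths 3 counts, taken as the lowest level that could be shown, correspond to 0.192 to 0.477 CPM, the count rescaled by the TMM-normalized library size. Such limits cover counting error only. Foxp1 itself had 353 and 383 CPM in WT against 341 and 337 CPM in Foxp1-deficient rTreg cells, and 234 and 230.0 CPM in WT against 126 and 101 CPM in Foxp1-deficient aTreg cells. Its log2 fold change was -0.12 (SE 0.094, edgeR adjusted p = 0.460) in rTreg and -1.03 (SE 0.096, edgeR adjusted p = 0.00194) in aTreg cells, so that the genotype of the rTreg libraries rests on their labels. A count over the whole gene includes exons outside the deleted part and need not show the deletion, and exon-level counts were not examined. The Treg markers Foxp3, Il2ra, Cd4, Cd3e, Ctla4 and Ikzf2 were present in every library. Replicate 1 and replicate 2 libraries differed in sex, with at most 3 Xist counts in the former and at least 15098 in the latter, in every group.

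The start regions of 27 of the 34 genes were found in RefSeq promoter windows of 300 bases on GRCm38.p6, each with 250 bases before and 50 after an annotated transcript start. The windows of 5 genes are shown. Those of Lpin1 and Acly, which were also called between genotypes, are not shown. Fasn, Ebp and Hsd17b7 had the largest increases in Foxp1-deficient cells, Srebf2 had the largest decrease that passed the test, and Hmgcs1 had the sterol regulatory element letters. Capitals mark, on either strand, TCACNCCAC (the sterol regulatory element consensus), CACGTG (E-box), CCAAT (NF-Y) and GGGCGG (Sp1). The Fasn window lies at chr11:120824498-120824797 (minus strand), the Ebp window at chrX:8193463-8193762 (minus strand), and the Hsd17b7 window at chr1:169969156-169969455 (minus strand). The Srebf2 window lies at chr15:82147019-82147318 (plus strand) and the Hmgcs1 window at chr13:119690101-119690400 (plus strand).
Fasn: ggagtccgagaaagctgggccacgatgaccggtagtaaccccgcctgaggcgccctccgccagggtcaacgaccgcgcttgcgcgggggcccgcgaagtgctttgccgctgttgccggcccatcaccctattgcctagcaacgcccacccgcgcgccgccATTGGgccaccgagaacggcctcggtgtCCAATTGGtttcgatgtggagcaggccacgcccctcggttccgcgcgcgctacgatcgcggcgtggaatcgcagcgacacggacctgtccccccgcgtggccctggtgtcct
Ebp: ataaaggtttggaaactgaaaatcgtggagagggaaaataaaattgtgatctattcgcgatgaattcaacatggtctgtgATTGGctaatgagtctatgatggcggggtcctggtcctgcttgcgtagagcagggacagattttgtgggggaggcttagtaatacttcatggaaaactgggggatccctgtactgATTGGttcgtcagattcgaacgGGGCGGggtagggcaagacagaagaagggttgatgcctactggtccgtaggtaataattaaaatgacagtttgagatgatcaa
Hsd17b7: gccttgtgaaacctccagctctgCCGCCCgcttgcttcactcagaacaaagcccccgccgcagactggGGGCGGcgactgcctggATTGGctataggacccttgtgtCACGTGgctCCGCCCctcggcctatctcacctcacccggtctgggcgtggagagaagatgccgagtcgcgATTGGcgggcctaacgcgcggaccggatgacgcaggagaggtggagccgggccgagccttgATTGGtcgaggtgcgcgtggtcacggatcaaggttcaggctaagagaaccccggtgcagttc
Srebf2: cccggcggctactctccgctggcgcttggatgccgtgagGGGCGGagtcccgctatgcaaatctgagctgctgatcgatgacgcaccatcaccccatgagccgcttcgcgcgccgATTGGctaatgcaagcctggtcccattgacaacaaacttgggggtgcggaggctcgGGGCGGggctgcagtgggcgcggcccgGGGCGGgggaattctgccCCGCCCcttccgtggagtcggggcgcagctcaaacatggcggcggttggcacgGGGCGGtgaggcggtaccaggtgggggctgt
Hmgcs1: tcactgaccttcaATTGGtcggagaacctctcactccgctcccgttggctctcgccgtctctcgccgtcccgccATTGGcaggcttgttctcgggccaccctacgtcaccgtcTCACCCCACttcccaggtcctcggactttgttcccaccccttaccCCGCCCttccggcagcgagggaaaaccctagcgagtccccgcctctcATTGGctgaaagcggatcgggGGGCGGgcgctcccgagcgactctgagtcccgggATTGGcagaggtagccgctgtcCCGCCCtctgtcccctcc

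In the Fasn window, a CCAAT and its reverse complement overlap, and 3 matches to the NF-Y letters were found with none to the Sp1 letters. The Hsd17b7 window held 3 matches each to the NF-Y and Sp1 letters and a single E-box, while the Ebp window held 2 NF-Y matches and 1 Sp1 match. Of the windows not shown, that of Acly held 1 NF-Y match and 4 Sp1 matches, and that of Lpin1 held no match. Of the 35 member windows, 62.9% held CCAAT, against 37.4% of all 32851 windows, and 71.4% held GGGCGG, against 35.7%. CACGTG was in 17.1% against 7.15%, in the windows of Insig1, Scap, Hsd17b7, Sc5d and Dhcr7. TCACNCCAC was in 2.86%, the Hmgcs1 window, against 1.24% of all windows. The forkhead letters TGTTTAC, which were added to the search after the data were seen, were in 2.86% of member windows, that of Elovl6, against 3.65% of all windows. These are matches of letters only, and 5 of the genes have more than 1 window.

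Levels per gene length, as the authors' FPKM values, spread widely within the pathway. For many genes, among them Acaca (17074 bases) and Lss (10787 bases), this length equals that of all annotated exons together. It can exceed the length of the transcripts present, so that the order below depends in part on the annotation. Srebf2 had the highest median over the 8 libraries, 64.3 FPKM, with a range of 56.1 to 94.7. Acly, the enzyme that makes cytosolic acetyl-CoA from citrate, followed with a median of 62.6 and a range of 55.8 to 70.2 FPKM. These ranges overlap, so that the order of Srebf2 and Acly is not set by these libraries. Fasn, the fatty acid synthase, had a median of 30.8 FPKM and Srebf1 had 30.4, again with overlapping ranges (25.7 to 49.1 and 25.3 to 38.5). The middle of the order was filled by Scd2 (20.9), Mvd (19.9), Ebp (19.3), Scap (18.6), Insig1 (18.4), Ggps1 (12.3), Sc5d (10.97) and Hmgcs1 (10.4 FPKM, all medians).

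Most other genes had medians between 2 and 10 FPKM. In falling order these were Lpin1 (8.76), Fdft1 (8.07), Stard4 (7.92), Acat2 (6.86), Pmvk (6.55), Dhcr7 (6.37), Insig2 (6.25), Nsdhl (5.93), Cyp51 (5.71), Mvk (5.15), Fads1 (4.98), Tm7sf2 (3.61), Sqle (3.53), Elovl6 (3.41), Msmo1 (2.52), Acaca (2.05) and Lss (2.04 FPKM). Idi1 (1.99) and Hsd17b7 (1.83 FPKM) were lower still. Fdps, the farnesyl diphosphate synthase, had a median of 0.267 FPKM with 4 to 28 counts per library. For Fdps, 1124 of 4208 exon bases (26.7%) are shared with the annotated gene Gm43738 on the same strand. Gm43738 is in the count table as well, so that the level of Fdps is uncertain. Genes on the opposite strand share 18.3% of the GENCODE M21 exon bases of Fdft1, 13.2% of those of Scap and 12.1% of those of Hmgcs1. The reads do not tell strands apart, so that these levels are uncertain too. The length in the FPKM values is shorter than these exons for Fdft1 (2860 against 4227 bases) and Hmgcs1 (3233 against 4594 bases). The shares may thus differ in the annotation that was counted, and the gene that overlaps Hmgcs1 is not in the count table. The desaturase Fads2 had 1 to 5 counts per library, at or near the lowest level that could be shown. Scd1 had 3 and 1 counts in WT rTreg, 1 and 0 in Foxp1-deficient rTreg, 1 and 1 in WT aTreg, and 4 and 0 in Foxp1-deficient aTreg cells, which is at or near that level too.

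**Figure D1:**
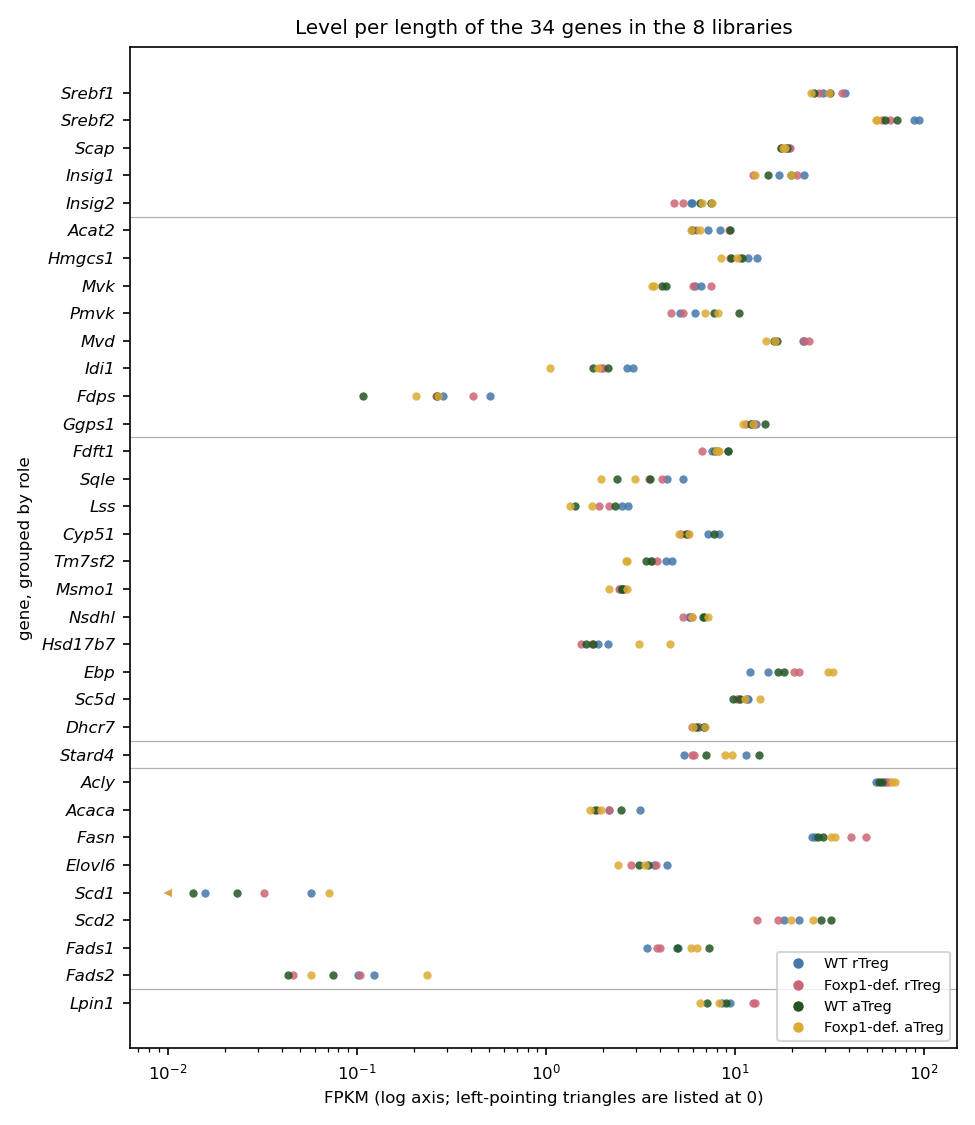
FPKM of each of the 34 genes (rows, grouped by role) in each of the 8 libraries (points, coloured by group) on a log axis, with a left-pointing triangle where a gene is listed at 0. Srebf2 and Acly sit highest, with medians of 64.3 and 62.6 FPKM, and Fdps, Fads2 and Scd1 lowest, with medians of 0.267, 0.0882 and 0.0196 FPKM.

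The sister genes of the pathway were set side by side per length. Srebf2 exceeded Srebf1 in every library, with no overlap of their ranges. Of the negative regulators, Insig1 was above Insig2 in every library, at 12.5 to 23.1 against 4.76 to 7.55 FPKM. Of the stearoyl-CoA desaturases, which place the first double bond in saturated fatty acids, Scd2 was at 13.1 to 32.3 FPKM, while Scd1 did not exceed 0.0714 FPKM. In these cells the Scd2 RNA was therefore nearly all of the RNA counted on both genes.

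In rTreg cells, loss of Foxp1 was accompanied by changes in 5 of the 32 tested genes, and these did not run in a single direction. Fasn, Ebp and Lpin1 rose in Foxp1-deficient rTreg cells over WT, by 1.45- to 1.76-fold, and Srebf2 and Scd2 were lower. A call here is an adjusted p under 0.05 from edgeR's quasi-likelihood test, adjusted over all 14540 genes tested. The 3 higher genes compare with 6.57% of all genes tested that were higher, and the 2 lower genes with 5.45% that were lower. Both shares are near the background and are not a result about the pathway as a group. With the study's added threshold of 1.5-fold, Fasn and Ebp remained of the higher genes (background 2.90%) and 0 of the lower genes (background 2.70%). Log2 fold changes were above 0 for 9 of the 32, and their median was -0.17, against 0.0029 over all genes tested.

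Fasn had the largest increase in this comparison. Its level was 287 and 289 CPM in WT rTreg cells and 545 and 468 CPM in Foxp1-deficient rTreg cells, against 293 and 315 CPM in WT aTreg and 360.1 and 359 CPM in Foxp1-deficient aTreg cells. Both Foxp1-deficient rTreg libraries lay above the other 6 libraries. The log2 fold change in rTreg cells was 0.81 (SE 0.079, edgeR adjusted p = 0.00133), with 0.93 in replicate pair 1 and 0.70 in pair 2. The gene (ENSMUSG00000025153) lies at chr11:120805846-120824547 on the minus strand in GENCODE M21, and no exon base of it is shared with another gene.

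Acetyl-CoA is built into fatty acids in sequence by Acly, the acetyl-CoA carboxylase Acaca and Fasn, and these enzymes did not change alike. Acly had 292 and 335 CPM in WT and 338 and 359 CPM in Foxp1-deficient rTreg cells (log2 fold change 0.15, SE 0.057, edgeR adjusted p = 0.123). Acaca, which makes the malonyl-CoA that Fasn uses, had a log2 fold change of -0.39 (SE 0.19, edgeR adjusted p = 0.231), and the elongase Elovl6 had -0.28 (SE 0.15). Neither passed the test. Scd2 had 118 and 102 CPM in WT and 93.6 and 74.2 CPM in Foxp1-deficient rTreg cells, which did not overlap, with a log2 fold change of -0.40 (SE 0.067, edgeR adjusted p = 0.0114) and -0.34 and -0.45 in pairs 1 and 2. The desaturase Fads1 had -0.09 (SE 0.16).

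Lpin1 encodes a phosphatidate phosphatase, which makes the diacylglycerol for triglycerides and phospholipids and also acts in the nucleus. It had 53.5 and 49.99 CPM in WT against 72.6 and 75.9 CPM in Foxp1-deficient rTreg cells, the highest values of the 8 libraries. The log2 fold change was 0.53 (SE 0.10, edgeR adjusted p = 0.0165), with 0.44 and 0.60 in pairs 1 and 2.

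Among the regulators, Srebf2 fell and the others did not pass the test. Srebf2 had 439 and 484 CPM in WT rTreg cells, higher than in any other library, and 335 and 310.1 CPM in Foxp1-deficient rTreg cells. The log2 fold change was -0.51 (SE 0.081, edgeR adjusted p = 0.00836), with -0.39 and -0.64 in pairs 1 and 2. Its sister Srebf1 had 215 and 169 CPM in WT against 210.0 and 162 CPM in Foxp1-deficient cells, where the difference between replicates exceeded that between genotypes (log2 fold change -0.05, SE 0.060). Scap had -0.02 (SE 0.064). Insig1, at 70.9 and 54.1 against 66.7 and 40.1 CPM, had -0.26 (SE 0.095, edgeR adjusted p = 0.117), and Insig2, at 20.5 and 20.8 against 18.6 and 17.2 CPM, had -0.22 (SE 0.13).

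Of the 8 enzymes from acetyl-CoA to farnesyl and geranylgeranyl diphosphate, none passed the test in rTreg cells, with log2 fold changes from -0.46 for Idi1 to 0.09 for Mvk. Hmgcs1, the synthase at the start of the mevalonate route, had -0.30 (SE 0.13, edgeR adjusted p = 0.163), at 37.7 and 43.5 CPM in WT against 34.8 and 31.5 CPM in Foxp1-deficient cells. Of the 11 enzymes from squalene to cholesterol, Ebp alone passed. The others ranged from -0.49 for Cyp51, the lanosterol demethylase (SE 0.14, edgeR adjusted p = 0.0676), to 0.02 for Msmo1. Ebp encodes the sterol isomerase that acts late in the route. Its level was 34.5 and 28.6 CPM in WT and 47.9 and 52.7 CPM in Foxp1-deficient rTreg cells, without overlap, and the log2 fold change was 0.68 (SE 0.11, edgeR adjusted p = 0.0107), with 0.47 and 0.88 in pairs 1 and 2. Stard4, which carries sterol between membranes, had 29.9 and 65.3 CPM in the WT libraries, a spread that contained both Foxp1-deficient values (34.5 and 34.3 CPM).

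The calls in rTreg cells depended on the replicate pairing and on single libraries. Without the replicate block, Fasn and Ebp passed, and Lpin1, Srebf2 and Scd2 did not. When the second library of either genotype was left out, Fasn alone of the 5 passed. The cell cycle genes Mki67, Top2a, Birc5, Ccnb1, Cdk1, Bub1, Ccna2 and Plk1 summed to 20.6 to 26.7 CPM in WT and 118 to 165 CPM in Foxp1-deficient rTreg cells, with 7 of the 8 genes called higher. The granulocyte precursor genes Mpo, Elane, S100a8 and S100a9 summed to at most 0.368 CPM in WT and to 5.12 to 11.6 CPM in Foxp1-deficient rTreg cells, with 3 of the 4 called higher. The plasma cell genes Jchain, Mzb1 and Sdc1 summed to 0.471 to 2.39 CPM in WT and to 5.34 to 8.75 CPM in Foxp1-deficient rTreg cells. Of these 3 genes, 1 was called higher, while 1 went the other way (log2 fold change -0.92) and did not pass. The part of these marker lists in the changes of the synthesis genes was not tested. In such bulk samples fewer cells of a type and less RNA per cell cannot be told apart.

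**Figure D2:**
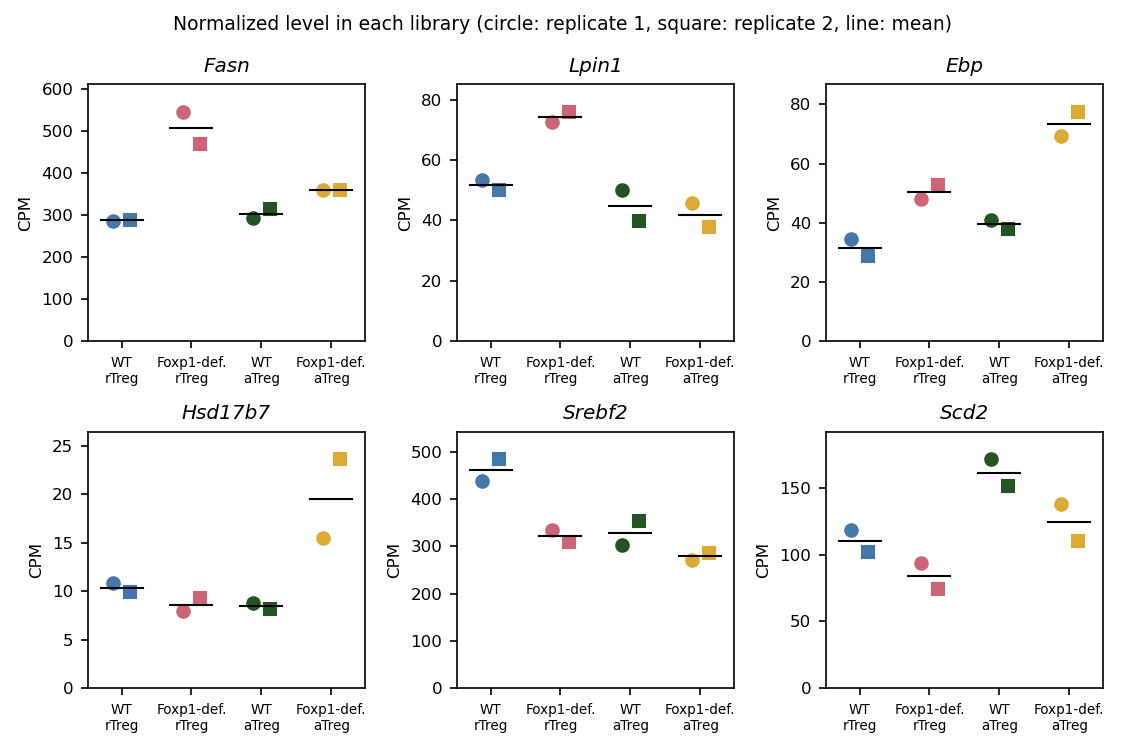
CPM (vertical axis, from 0) of 6 genes in each library, as circles for replicate 1 and squares for replicate 2, with a line at the mean of each group of 2. Fasn and Lpin1 stand highest in Foxp1-deficient rTreg cells, Hsd17b7 and Ebp in Foxp1-deficient aTreg cells, Srebf2 in WT rTreg cells and Scd2 in WT aTreg cells.

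In aTreg cells, 4 of the 32 genes differed between genotypes. Hsd17b7, Ebp and Acly were higher in Foxp1-deficient than in WT aTreg cells and Scd2 was lower. The 3 higher genes compare with 4.11% of all genes tested and the lower gene with 2.77%. With the 1.5-fold threshold, Hsd17b7 and Ebp remained (background 2.37%), and 0 lower genes (background 1.66%). The counts are too small to set the pathway apart from the background. The median log2 fold change of the 32 genes was -0.08, with 10 above 0, against 0.0018 over all genes tested.

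Hsd17b7 encodes the keto reductase that completes removal of the methyl groups from the sterol ring, and Ebp acts after it. It had 10.9 and 9.89 CPM in WT rTreg, 7.96 and 9.31 CPM in Foxp1-deficient rTreg, 8.76 and 8.13 CPM in WT aTreg, and 15.5 and 23.6 CPM in Foxp1-deficient aTreg cells. Both Foxp1-deficient aTreg libraries were above the other 6, and they differed from each other more than the other groups did. The log2 fold change in aTreg cells was 1.21 (SE 0.20, edgeR adjusted p = 0.0157), with 0.81 and 1.53 in pairs 1 and 2, and it was the largest of the 32 genes. The raw values were 80 and 127 counts in WT against 185 and 329 in Foxp1-deficient aTreg cells. The gene (ENSMUSG00000026675) lies at chr1:169949535-169969241 on the minus strand, with no exon base shared with another gene.

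Ebp had 40.9 and 38.0 CPM in WT and 69.5 and 77.5 CPM in Foxp1-deficient aTreg cells, a log2 fold change of 0.90 (SE 0.11, edgeR adjusted p = 0.00481), with 0.76 and 1.02 in pairs 1 and 2. Among the 32 tested genes it alone was called higher in Foxp1-deficient cells of both subsets. Ebp (ENSMUSG00000031168) lies on the X chromosome at chrX:8185329-8193512. The sex of the libraries differed between the replicate numbers but not between genotypes within a number, and the increase was seen in both pairs.

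Sc5d, the sterol desaturase that follows Ebp, had 46.2 and 50.8 CPM in WT against 53.1 and 67.1 CPM in Foxp1-deficient aTreg cells, which did not overlap, but the change of 0.31 (SE 0.086, edgeR adjusted p = 0.0791) did not pass the test. The reductase Dhcr7, which acts after it, had 0.01 (SE 0.077). The enzymes before Hsd17b7 did not pass either. Their log2 fold changes ran from -0.36 for Tm7sf2 (SE 0.13, edgeR adjusted p = 0.157) to -0.03 for Nsdhl, with Fdft1 at -0.04, Msmo1 at -0.04, Lss at -0.26, Cyp51 at -0.27 and Sqle at -0.28. On the mevalonate route all 8 genes missed the threshold, from -0.42 for Idi1 to 0.35 for the low gene Fdps (SE 0.39). Acat2 (-0.27), Pmvk (-0.23), Mvk (-0.16), Ggps1 (-0.15), Hmgcs1 (-0.12) and Mvd (-0.06) lay between.

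Acly had 297 and 309.7 CPM in WT and 349 and 376 CPM in Foxp1-deficient aTreg cells, without overlap. The change was small, at 0.26 on the log2 scale (SE 0.057, edgeR adjusted p = 0.0384), and was 0.23 and 0.28 in pairs 1 and 2. The call of Acly was lost in 13 of 20 alternatives, over which its adjusted p with edgeR or the other tools ran from 0.00663 to 0.333. Fasn had 0.24 (SE 0.078, edgeR adjusted p = 0.112) in this subset and did not pass. Scd2 had 171 and 151 CPM in WT and 138 and 110.3 CPM in Foxp1-deficient aTreg cells (log2 fold change -0.39, SE 0.065, edgeR adjusted p = 0.0161, with -0.31 and -0.46 in pairs 1 and 2). Scd2 was thus called lower in Foxp1-deficient cells of both subsets, by a similar amount. Its call was lost in 6 of 20 alternatives in rTreg cells and in 8 of 20 in aTreg cells. Srebf2 had -0.23 (SE 0.080, edgeR adjusted p = 0.136), and Lpin1, at 50.1 and 39.8 CPM in WT against 45.8 and 37.9 CPM, had -0.10 (SE 0.10).

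Without the replicate block, only Ebp passed in aTreg cells. Left without WT replicate 2, the higher calls were again Ebp alone, and left without Foxp1-deficient replicate 2, none of the 4 genes passed. The cell cycle genes summed to 98.8 to 183 CPM in WT and 320 to 450 CPM in Foxp1-deficient aTreg cells, with all 8 called higher, and the granulocyte precursor genes to 1.92 to 2.63 and 2.58 to 24.7 CPM, with 1 of the 4 called higher. The plasma cell genes summed to 2.88 to 3.29 CPM in WT and 3.66 to 12.8 CPM in Foxp1-deficient aTreg cells, and 0 of the 3 were called. Their part in these changes was not tested.

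**Figure D3:**
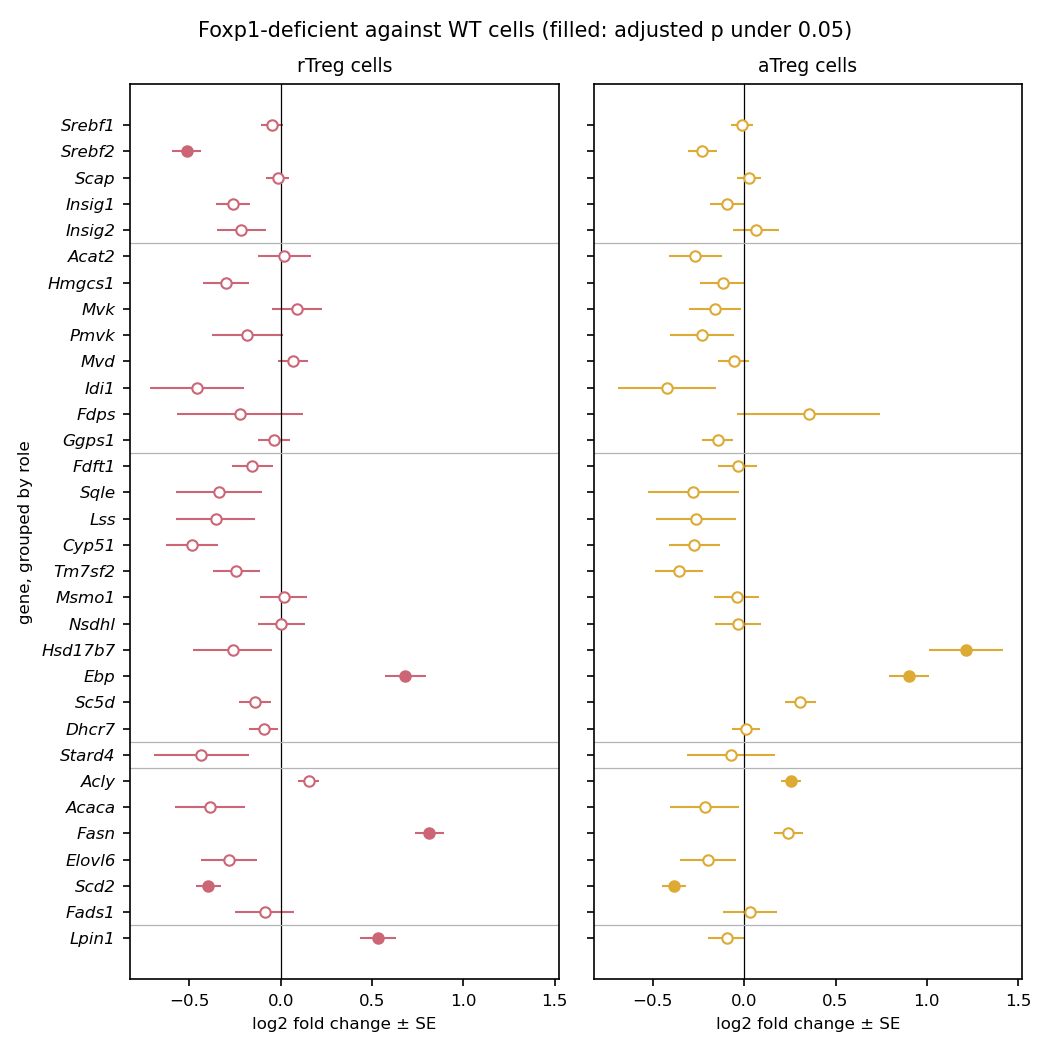
Log2 fold change of Foxp1-deficient against WT cells (horizontal axis, bars are SE) for the 32 tested genes, in rTreg cells (left) and aTreg cells (right), filled where the edgeR adjusted p is under 0.05. Filled points to the right of 0 are Ebp, Fasn and Lpin1 in rTreg cells and Hsd17b7, Ebp and Acly in aTreg cells.

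Whether the genotype acted differently in the subsets was tested as an interaction, the change in aTreg cells minus that in rTreg cells. With edgeR, 0 of the 32 genes passed, against 0.330% of all genes tested, while 5 had an unadjusted p under 0.05. DESeq2 called 2 of the genes (Hsd17b7 and Fasn), edgeR with robust dispersion the same 2, edgeR without the filter on low counts 3 (these and Lpin1), and limma-voom 0. For Hsd17b7 the difference was 1.48 on the log2 scale (SE 0.30, 95% interval 0.79 to 2.16, edgeR adjusted p = 0.0837), with 1.26 and 1.61 in pairs 1 and 2. For Fasn it was -0.57 (SE 0.11, interval -0.83 to -0.32, edgeR adjusted p = 0.0782), and for Lpin1 -0.63 (SE 0.14, interval -0.96 to -0.30, edgeR adjusted p = 0.115). Sc5d had 0.45 (SE 0.12, edgeR adjusted p = 0.178) and Srebf2 0.29 (SE 0.11, edgeR adjusted p = 0.346). For Ebp the difference was 0.22 (SE 0.16) and for Scd2 0.01 (SE 0.093). Over 19 alternatives, the adjusted p with edgeR or the other tools ran from 7.06e-04 to 0.409 for Hsd17b7 and from 6.82e-04 to 0.424 for Fasn, and without WT aTreg replicate 1 Fasn was called. The intervals above are not adjusted for the number of genes tested. Whether Hsd17b7, Fasn and Lpin1 are called thus depended on the tool, the filter and, for Fasn, on a single library.

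In WT cells, 9 of the 32 genes differed between the subsets, in both directions. Pmvk, Scd2 and Fads1 were higher in aTreg cells and Srebf1, Srebf2, Mvk, Mvd, Sqle and Tm7sf2 were lower. The 3 higher genes compare with 18.2% of all genes tested and the 6 lower genes with 13.6%. With the 2-fold threshold of the study, 0 genes were higher (background 9.50%) and 0 lower (background 2.83%). Log2 fold changes were above 0 for 9 of the 32, with a median of -0.23, against -0.0046 over all genes tested.

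On the mevalonate route, the enzymes Mvk, Pmvk and Mvd, which act in sequence, moved in opposite directions. Mvk, the mevalonate kinase, had 17.5 and 16.9 CPM in WT rTreg and 11.2 and 10.8 CPM in WT aTreg cells, and 20.4 and 16.7 against 9.46 and 10.1 CPM in the Foxp1-deficient cells. All 4 aTreg libraries were below all 4 rTreg libraries. Its log2 fold change was -0.65 (SE 0.14, edgeR adjusted p = 0.00937) in WT and -0.90 (SE 0.14, edgeR adjusted p = 0.00166) in Foxp1-deficient cells. Pmvk, the phosphomevalonate kinase of the next step, had 8.74 and 10.8 CPM in WT rTreg, 9.23 and 8.15 CPM in Foxp1-deficient rTreg, 17.4 and 13.1 CPM in WT aTreg, and 13.6 and 12.1 CPM in Foxp1-deficient aTreg cells. Here all aTreg libraries were above all rTreg libraries, with log2 fold changes of 0.62 (SE 0.18, edgeR adjusted p = 0.0355) in WT and 0.57 (SE 0.19, edgeR adjusted p = 0.0466) in Foxp1-deficient cells. The call of Pmvk was lost in 9 of 20 alternatives in WT cells and in 9 of 20 in Foxp1-deficient cells. Over these alternatives its log2 fold change ran from 0.37 to 0.92 in WT and from 0.53 to 0.61 in Foxp1-deficient cells.

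Mvd, the decarboxylase that comes after Pmvk, had 42.2 and 44.5 CPM in WT rTreg, 46.3 and 44.9 CPM in Foxp1-deficient rTreg, 28.9 and 30.5 CPM in WT aTreg, and 29.5 and 27.7 CPM in Foxp1-deficient aTreg cells. It was lower in every aTreg library, by -0.54 on the log2 scale (SE 0.083, edgeR adjusted p = 0.00213) in WT and -0.67 (SE 0.084, edgeR adjusted p = 5.85e-04) in Foxp1-deficient cells. Within pairs 1 and 2 the change of Mvd was -0.54 and -0.54 in WT cells and that of Mvk -0.64 and -0.65, while that of Pmvk was 0.99 and 0.28. Idi1, Fdps, Hmgcs1, Acat2 and Ggps1 did not pass in either genotype.

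From squalene to cholesterol, Sqle, the squalene epoxidase, had the largest change that was called in WT cells. It had 24.1 and 30.1 CPM in WT rTreg and 12.8 and 19.3 CPM in WT aTreg cells, a log2 fold change of -0.74 (SE 0.24, edgeR adjusted p = 0.0468), with -0.91 and -0.64 in pairs 1 and 2. This call was lost in 10 of 20 alternatives, with adjusted p from 9.95e-04 to 0.312 by edgeR or the other tools. In Foxp1-deficient cells it had 23.1 and 20.2 against 15.9 and 10.98 CPM (-0.68, SE 0.25, edgeR adjusted p = 0.0617). Tm7sf2, a sterol reductase, was lower in aTreg cells of both genotypes, with -0.42 (SE 0.13, edgeR adjusted p = 0.0422) and -0.53 (SE 0.14, edgeR adjusted p = 0.0159), but 532 of its exon bases are shared with Vps51 on the same strand. The call of Tm7sf2 in WT cells was lost in 14 of 20 alternatives, with adjusted p from 0.0360 to 0.267 by edgeR or the other tools. Ebp and Hsd17b7 were called higher in aTreg cells of the Foxp1-deficient mice, by 0.54 (SE 0.11, edgeR adjusted p = 0.00547) and 1.17 (SE 0.21, edgeR adjusted p = 0.00309), and in WT cells their values were 0.32 (SE 0.11, edgeR adjusted p = 0.0652) and -0.31 (SE 0.21).

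The regulators Srebf1 and Srebf2 were lower in WT aTreg than in WT rTreg cells. Srebf1 had 175 and 145 CPM in WT aTreg and 172 and 145 CPM in Foxp1-deficient aTreg cells, and within a replicate number it was lower in aTreg cells each time, although the groups overlap across numbers. Its log2 fold change was -0.26 (SE 0.060, edgeR adjusted p = 0.0129) in WT and -0.23 (SE 0.060, edgeR adjusted p = 0.0194) in Foxp1-deficient cells. Srebf2 had 302 and 353 CPM in WT aTreg cells, below both WT rTreg values, and a change of -0.50 (SE 0.080, edgeR adjusted p = 0.00272). In Foxp1-deficient cells, with 272 and 286 CPM in aTreg cells, the change was -0.21 (SE 0.081, edgeR adjusted p = 0.0717). Insig1 had 59.4 and 45.1 CPM in WT aTreg and 59.1 and 40.0 CPM in Foxp1-deficient aTreg cells and passed in neither genotype. Insig2, with 25.1 and 22.2 CPM in WT aTreg and 22.5 and 26.6 CPM in Foxp1-deficient aTreg cells, was called higher in aTreg cells of the Foxp1-deficient mice alone (0.47, SE 0.13, edgeR adjusted p = 0.0230), and its interaction did not pass.

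Both fatty acid desaturases that could be tested were higher in aTreg cells, in either genotype. Scd2 rose by 0.56 on the log2 scale (SE 0.066, edgeR adjusted p = 5.93e-04) in WT and by 0.57 (SE 0.067, edgeR adjusted p = 4.29e-04) in Foxp1-deficient cells. Fads1, which makes the double bond that leads to arachidonic acid, had 0.48 (SE 0.15, edgeR adjusted p = 0.0445) and 0.60 (SE 0.16, edgeR adjusted p = 0.0176). Its call in WT cells was lost in 11 of 20 alternatives, with adjusted p from 0.0118 to 0.279 by edgeR or the other tools. Fasn and Lpin1 were lower in aTreg than in rTreg cells of the Foxp1-deficient mice, by -0.49 (SE 0.078, edgeR adjusted p = 0.00183) and -0.84 (SE 0.10, edgeR adjusted p = 4.55e-04). In WT cells their values were 0.08 (SE 0.078) and -0.22 (SE 0.10, edgeR adjusted p = 0.146). These comparisons share the Foxp1-deficient rTreg libraries with the comparison of genotypes above, in which Fasn and Lpin1 had been higher.

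In the Foxp1-deficient cells, 6 genes were higher and 6 lower in aTreg cells, with a background of 21.9% higher and 18.2% lower among all genes tested. With the 2-fold threshold, Hsd17b7 remained higher (background 11.3%) and 0 genes were lower (background 4.39%). In neither genotype are these counts read as a result about the pathway as a group. Without the replicate block, Srebf2, Mvk and Mvd were the calls that passed in WT cells, all of them lower. Left without either WT rTreg library or WT aTreg replicate 1, Srebf2 and Mvd were the lower calls in WT cells. The cell cycle genes rose with activation in both genotypes, from 20.6 to 26.7 CPM in WT rTreg to 98.8 to 183 CPM in WT aTreg cells and from 118 to 165 CPM to 320 to 450 CPM in the Foxp1-deficient cells. Markers of other cell types moved with the subset too, in both directions. The CD8 T cell genes Cd8a and Cd8b1 summed to 12.5 to 16.6 CPM in WT rTreg and 8.07 to 9.97 CPM in WT aTreg cells. In the Foxp1-deficient cells they summed to 13.2 to 14.3 CPM in rTreg and 6.10 to 8.12 CPM in aTreg cells. The 1 tested CD8 T cell gene was called lower in aTreg cells of both genotypes. The B cell gene Cd79b had 4.32 and 5.34 CPM in WT rTreg and 15.8 and 15.8 CPM in WT aTreg cells and was called higher, while Cd79a, at 3.49 and 3.45 against 2.19 and 3.14 CPM, was not. In the Foxp1-deficient cells Cd79b had 5.25 and 4.54 CPM in rTreg and 14.6 and 17.3 CPM in aTreg cells. The NK cell genes Ncr1 and Klrb1c summed to at most 0.235 CPM in WT rTreg and to 2.74 to 3.59 CPM in WT aTreg cells, with the 1 tested gene called higher, and to 0.477 to 0.505 and 2.15 to 3.18 CPM in the Foxp1-deficient cells. The granulocyte precursor genes, of which Mpo and Elane were at 0 in both WT rTreg libraries, had 1 of 4 called higher in WT aTreg cells, at 1.92 to 2.63 against at most 0.368 CPM. The part of these lists in the changes was not tested.

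**Figure D4:**
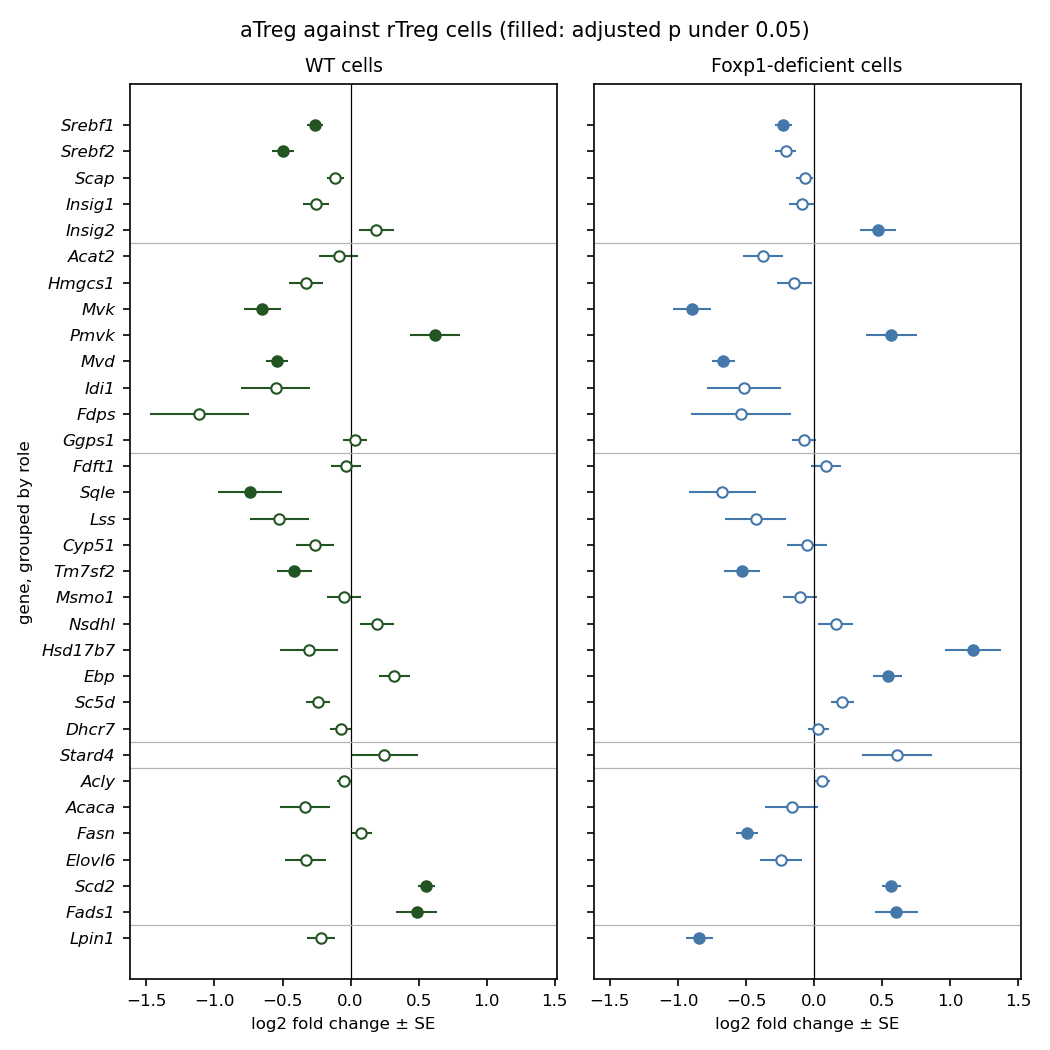
Log2 fold change of aTreg against rTreg cells (horizontal axis, bars are SE) for the 32 tested genes, in WT (left) and Foxp1-deficient cells (right), filled where the edgeR adjusted p is under 0.05. Mvk and Mvd lie left of 0 and Pmvk, Scd2 and Fads1 right of 0 in both panels, while Hsd17b7, Fasn and Lpin1 differ in position between the panels.

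Other genes around the pathway were taken from lists written with earlier results of these data known. The counts of each list are to be read against the shares of all genes tested, 6.57% higher and 5.45% lower in Foxp1-deficient rTreg cells and 4.11% higher and 2.77% lower in Foxp1-deficient aTreg cells, and none is a result about its list as a group. Of 9 tested genes that process or turn over SREBPs, none passed in either genotype comparison. Of 7 tested genes of sterol export and its control, 1 was lower in each subset of Foxp1-deficient cells. This was Abca1, the cholesterol exporter, with 81.1 and 49.5 CPM in WT and 37.9 and 31.3 CPM in Foxp1-deficient rTreg cells (log2 fold change -0.90, SE 0.17, edgeR adjusted p = 0.0174), and 55.5 and 52.4 against 28.8 and 30.7 CPM in aTreg cells (-0.86, SE 0.17, edgeR adjusted p = 0.0276). The Abca1 groups did not overlap in either subset. Of 9 tested genes of sterol storage and trafficking, the esterifying enzyme Soat1 was lower in Foxp1-deficient rTreg cells (-0.33, SE 0.075, edgeR adjusted p = 0.0319), and none passed in aTreg cells.

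Of 13 genes that use prenyl groups, none passed in rTreg cells and 1 was lower in Foxp1-deficient aTreg cells, Fntb, the beta subunit of farnesyltransferase (-0.64, SE 0.11, edgeR adjusted p = 0.0192). Of 16 tested genes that activate or elongate fatty acids, 1 was higher and 2 lower in Foxp1-deficient rTreg cells. Acsl5, an acyl-CoA synthetase, was higher by 0.39 (SE 0.067, edgeR adjusted p = 0.0122), and again by 0.28 in aTreg cells (SE 0.066, edgeR adjusted p = 0.0473), where it was the call of its list. Elovl5 (-0.33, SE 0.067, edgeR adjusted p = 0.0212) and Mid1ip1, an activator of acetyl-CoA carboxylase (-0.98, SE 0.22, edgeR adjusted p = 0.0306), were lower in rTreg cells. Mid1ip1 was at 4.87 and 5.10 CPM in WT and 2.70 and 2.38 CPM in Foxp1-deficient rTreg cells.

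None of the 8 other genes of glycerolipid synthesis passed in a genotype comparison. Of 12 tested genes of fatty acid oxidation, Acadvl (0.63, SE 0.087, edgeR adjusted p = 0.00528) and Hadhb (0.30, SE 0.079, edgeR adjusted p = 0.0490) were higher in Foxp1-deficient rTreg cells. In aTreg cells Acads was higher (0.37, SE 0.084, edgeR adjusted p = 0.0420) and Acadm lower (-0.42, SE 0.094, edgeR adjusted p = 0.0382). Of 8 genes of growth control upstream of SREBPs, Tsc1, a brake on mTORC1, was lower in Foxp1-deficient rTreg cells (-0.34, SE 0.065, edgeR adjusted p = 0.0185), and none passed in aTreg cells.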

How the data were processed

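RNA of sorted mouse Treg cells was sequenced in 8 libraries (4 groups, 2 replicates each). The deposited table gives, for each gene, an unnormalized count that the authors obtained with FastQC, trim_galore, Picard duplicate removal and htseq-count, and the submitters' processing notes name HISAT2 2.0.5 and mm10. The authors also deposited FPKM values, which are these counts divided by the library total and by a length per gene. Duplicate removal can lower the values of abundant genes. The kit did not mark strand, so that reads of overlapping antisense genes cannot be told apart.

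Counts were fitted in R 4.3.3 with edgeR 4.0.16 (TMM, filterByExpr with minimum count 10, glmQLFit, glmQLFTest) over all 8 libraries, with group means and a block for the replicate number in the titles, since the study's methods name a paired analysis. A call is a Benjamini-Hochberg adjusted p under 0.05 over the 14540 genes tested. Same-numbered libraries deviated from their group means together in every comparison (correlations over genes of 0.371 to 0.581). The SE of an edgeR log2 fold change is its absolute value divided by the square root of the test's F statistic. Intervals are at 95% and built from this SE, so that they need not match the p-value exactly.

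The members and all lists were chosen with earlier results of these data known. The text names every member, gives all libraries for members called between genotypes, for the 6 largest called changes between WT subsets and for sister pairs, and names at most 4 genes of another list, those with the smallest p. Alternatives were a fit without the block, limma-voom (limma 3.58.1) with and without quality weights, DESeq2 1.42.0, other size factors and filters, separate fits, robust dispersion, log2 of the FPKM values plus 1 or 0.1, the study's fold thresholds, and leaving out each library. The procedure was also run on simulated counts in which all groups shared the same replicate effect. That run cannot test whether the replicate block suits these libraries. Results that need some further marker genes are not reported here.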

Additional observations from a re-analysis of the deposited data

How the results depend on the processing

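The 30 called changes of single genes kept their direction in all alternatives tried. The numbers of genes that passed were less stable, and the cause was not tested except where fewer samples or a stricter threshold set it. Without the replicate block, the pathway genes called lower fell from 2 to 0 in the rTreg genotype comparison and from 1 to 0 in aTreg cells, those higher in aTreg cells from 3 to 1, and in the WT subsets the 3 higher and 6 lower genes became 0 and 3. Over all genes, the fit without the block gave 181 higher and 119 lower in rTreg cells (main 956 and 792) and 46 and 35 in aTreg cells (main 598 and 403). The study's fold thresholds left 0 lower genes in every comparison, 0 higher between WT subsets and 1 higher between Foxp1-deficient subsets. Log2 FPKM plus 1 without a filter gave 0 higher and 0 lower in both genotype comparisons, 1 higher and 2 lower in the WT subsets and 3 higher in the Foxp1-deficient ones. With a filter, FPKM plus 1 or plus 0.1 gave 1 higher and 0 lower in the aTreg genotype comparison. Fits of the libraries of each comparison alone gave 0 lower in aTreg cells, 5 higher and 12 lower in the WT subsets, and 11 lower in the Foxp1-deficient ones. DESeq2 gave 1 higher in the WT subsets and 2 interactions. Without a filter on low counts there were 5 higher genes in aTreg cells and 3 interactions, and robust dispersion gave 2 interactions.

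With each library left out, the range was 1 to 3 higher and 0 to 3 lower for the rTreg genotype comparison, 0 to 2 higher and 0 to 1 lower for the aTreg one, 1 to 2 higher and 2 to 7 lower for the WT subsets, 3 to 6 higher for the Foxp1-deficient subsets, and 0 to 1 interactions. In these fits a lone library is assumed to vary like the other groups. The rTreg genotype comparison had 1 higher and 0 lower without replicate 2 of either genotype, and 1 lower without replicate 1 of either. The aTreg one had 1 higher and 0 lower without WT replicate 2, 0 of each without Foxp1-deficient replicate 2, and 0 lower without Foxp1-deficient replicate 1. The WT subsets had 2 lower without WT rTreg replicate 1 or 2 or WT aTreg replicate 1, and 1 higher without WT aTreg replicate 1 or either Foxp1-deficient aTreg library. The Foxp1-deficient subsets had 3 higher without replicate 2 of either subset, and the 1 interaction, of Fasn, came without WT aTreg replicate 1. For genes near the lowest level, such as Scd1 and Fads2, depth limits what could be detected. Fdps had few counts too, but it shares exon bases with Gm43738 on the same strand. Whether its low counts come from this overlap was not tested.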

Other observations

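Several genes around the pathway differed between WT aTreg and WT rTreg cells. Hacd3, a dehydratase of the fatty acid elongation cycle, had 62.6 and 62.6 CPM in WT rTreg and 167 and 129 CPM in WT aTreg cells (log2 fold change 1.23, SE 0.11, edgeR adjusted p = 1.44e-04). Mid1ip1 had 4.87 and 5.10 against 14.6 and 10.8 CPM (1.32, SE 0.18, edgeR adjusted p = 0.00115). Of the 16 tested genes that activate or elongate fatty acids, 6 were higher and 3 lower in WT aTreg cells, against 18.2% higher and 13.6% lower of all genes tested. Sec24d, a coat protein of vesicles that leave the endoplasmic reticulum, had 14.4 and 13.1 against 29.6 and 27.1 CPM (1.04, SE 0.11, edgeR adjusted p = 4.13e-04), and the other 8 tested genes of SREBP processing and turnover did not pass.

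Among 9 tested genes of sterol storage and trafficking, 3 were higher and 2 lower in WT aTreg cells, to be read against the same 18.2% and 13.6% of all genes tested. Soat2, which esterifies cholesterol, had 2 and 3 counts in WT rTreg cells, at the lowest level that could be shown, and 70 and 75 counts in WT aTreg cells. Npc2, which hands cholesterol on in the lysosome, had 279.8 and 281 CPM in WT rTreg and 165 and 191 CPM in WT aTreg cells (-0.66, SE 0.071, edgeR adjusted p = 3.79e-04). Of the 7 tested genes of sterol export and its control, 1 was higher and 1 lower in WT aTreg cells, against the same shares. The lower gene was Mylip, which targets lipoprotein receptors for degradation. It had 106 and 87.3 against 64.4 and 66.0 CPM (-0.55, SE 0.085, edgeR adjusted p = 0.00212). Fntb had 38.8 and 38.7 against 20.5 and 25.2 CPM (-0.76, SE 0.11, edgeR adjusted p = 0.00144), the only call among 13 genes that use prenyl groups, where 13.6% of all genes tested were lower.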
